A study of Caenorhabditis elegans with 4 samples.

Results

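The P-type cation ATPase genes described here are catp-1 to catp-8 and eat-6 of Caenorhabditis elegans, 9 genes of the 46934 with a row in each count table. They were taken by their WormBase symbols. The gene catp-3 was chosen by its fold change in this same comparison of depletion with control, so its values are given as a description without a test, while the other genes belong to the set by name.

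RNA of whole adults was sequenced in 2 control libraries and 2 ATTF-6 depletion libraries. Control animals carried only the wrdSi51 insertion on chromosome II, in which the mex-5 promoter drives TIR1 in the germ line together with mTagBFP2 (mex-5p::TIR1::F2A::mTagBFP2::AID*::NLS with the tbb-2 3'UTR). Depletion animals carried the same insertion and GFP::tev::aid::attf-6 on chromosome I, and TIR1 directs the tagged protein to degradation when auxin is present. All animals of both groups were raised at 20 °C and were moved to 4 mM auxin at the L4 stage. An effect of the tag on attf-6 and an effect of losing the protein cannot be told apart. The driver is germline-specific, and the tagged allele was made in the control background. Titles of the samples say small RNA, whereas the library protocol is one for mRNA.

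P-type ATPases are membrane pumps that are phosphorylated on an aspartate during each transport cycle and use ATP to move ions or other substrates. The Na,K-ATPase exports sodium and imports potassium, and it works as a catalytic alpha subunit with a glycosylated beta subunit. EAT-6 is the worm's Na,K-ATPase alpha subunit, needed for pharyngeal pumping, and CATP-1 to CATP-4 are related to it by sequence. CATP-5, CATP-6 and CATP-7 are P5B pumps, relatives of human ATP13A2 and ATP13A3, which export polyamines from late endosomes and lysosomes. CATP-8 is the P5A pump, the relative of yeast Spf1, which sits in the endoplasmic reticulum and removes misinserted membrane segments there.

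The libraries held between 23923423 and 32096525 counts on genes. Levels are given as CPM, counts relative to the library total after TMM scaling. Differences were tested with the quasi-likelihood F-test of edgeR, and p-values were adjusted by the Benjamini-Hochberg method over the 16591 genes that passed its expression filter. With 2 libraries per group, each spread below is that of a single pair. The mRNA of attf-6, whose protein the auxin targets, was 162.9 and 173.1 CPM in the controls, against 100.9 and 125.8 CPM with ATTF-6 depleted (log2 fold change -0.57, SE 0.13, adjusted p = 0.0042).

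Upon ATTF-6 depletion, the mRNA of catp-3 was 8.46 times as abundant as in the control, and the other genes of the set moved far less and in both directions. The mean CPM of catp-7 was 2.09 times that of the control, and those of catp-4 and catp-1 were 1.81 and 1.47 times the control means. The mean CPM of catp-6 and catp-8 fell, to 0.344 and 0.568 of the control. No call was made for eat-6 and catp-5, and catp-2 had too few counts to test. Leaving out catp-3, which was chosen by this difference, 5 of the 7 genes tested passed an adjusted p of 0.05, 3 higher and 2 lower. Over all genes tested, 63.0% passed, 30.9% higher and 32.1% lower, so nothing about the set is read from these counts. In all 7 the libraries of the groups did not overlap, 5 being higher upon depletion and 2 lower, and over all genes tested this held for 82.2%, 44.1% higher and 38.2% lower. The median log2 fold change was 0.27 over the 7 genes and 0.16 over all genes tested.

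**Figure D1:**
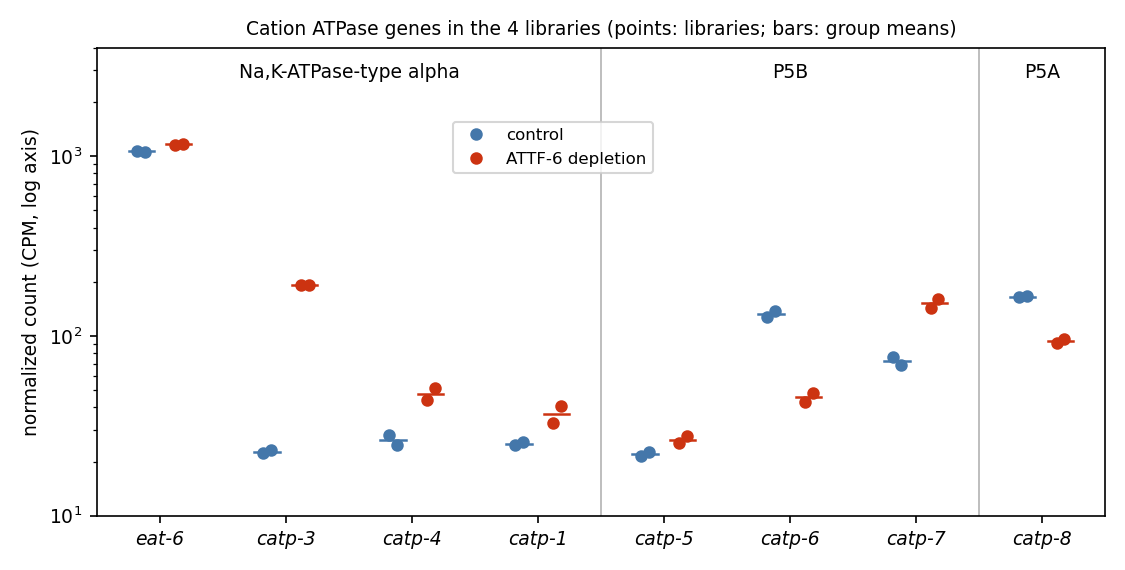
Normalized counts (CPM, log axis) of the 8 cation ATPase genes with enough counts to test, in 2 control and 2 ATTF-6 depletion libraries. Points are libraries and bars are group means. The catp-3 points are at 22.2 and 23.1 CPM in the control and at 192 and 191 CPM upon depletion, while eat-6 is the highest gene in every library.

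The gene catp-3 (WBGene00015660) lies on chromosome V of WBcel235, from 8076012 to 8079916 on the plus strand. Its coding transcript has 8 exons and encodes 1054 residues, and a second annotated transcript is non-coding. The controls had 724 and 698 counts on catp-3, and the depletion libraries had 4352 and 5330. After normalization this was 22.2 and 23.1 CPM in the controls, against 191.8 and 191.3 CPM with ATTF-6 depleted. Both depletion libraries were far above both controls, and the replicates of each group nearly coincided. The group means were 22.7 ± 0.622 CPM and 191.5 ± 0.321 CPM (SD, n = 2), a log2 fold change of 3.08 with a standard error of 0.11. Among all genes tested, 125 had a larger log2 fold change, which is 0.753% of them. All its counts were whole numbers, and no annotated gene overlaps it.

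**Figure D2:**
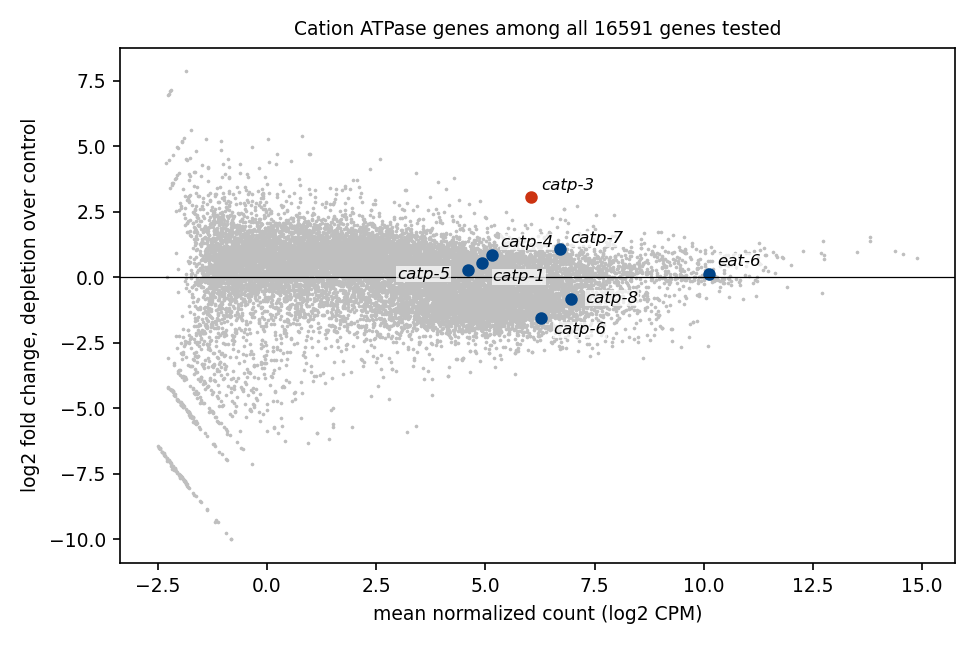
Log2 fold change of depletion over control against the mean normalized count (log2 CPM) for the 16591 genes tested (grey) with catp-3 in red and its 7 tested relatives in blue. The gene catp-3 is at 3.08, at the upper edge of genes of similar abundance, and its relatives lie between -1.54 for catp-6 and 1.06 for catp-7.

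The surroundings of catp-3 hold chemoreceptor genes with few counts. Upstream on the opposite strand, 3864 bases away, str-144 had 0.0307 and 0.265 CPM in the controls, against 1.23 and 0.969 CPM with ATTF-6 depleted (log2 fold change 2.89, SE 0.73, adjusted p = 0.0074). This neighbour rose as well, from a level near the detection limit. Downstream, 232 bases away and also on the opposite strand, str-131 had at most 0.276 CPM in any library and was not tested. The 3 genes most like catp-3 were those with the smallest distance to it in log2 CPM centred on each gene's mean, over 4 libraries. A constant was added to the counts for this, larger than that of the fit, and it shrinks differences between low counts. They were fbxa-163, with distance 0.142, F56D6.9, with distance 0.202, and lido-17, with distance 0.205. An F-box gene by name, fbxa-163 had 6 and 5 counts in the controls, against 43 and 57 with ATTF-6 depleted. The gene F56D6.9 was listed at 0 in both controls and had 14 counts in each depletion library. Counts of lido-17 were 31 and 32 in the controls, against 173 and 233 with ATTF-6 depleted. All 3 had far fewer counts than catp-3 in every library. Their fitted log2 fold changes were 3.46 for fbxa-163 (SE 0.468), 6.99 for F56D6.9 (SE 1.265) and 2.99 for lido-17 (SE 0.241), against 3.08 for catp-3. A small distance at such counts thus does not mean an equal fold change.

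Its relative eat-6 (WBGene00001137, chromosome V, 13126414 to 13129995, minus strand, 996 residues) supplied most of the alpha subunit mRNA. Its counts were 34963 and 31809 in the controls, against 26222 and 32582 with ATTF-6 depleted, or 1073 and 1052 CPM against 1155 and 1170 CPM. The depletion libraries were slightly above the controls, with no call by the test. The log2 fold change was 0.13 (SE 0.12), with an interval from -0.14 to 0.40 at 95% confidence and adjusted p = 0.36. Leaving out depletion replicate 1 or 2 gave log2 fold changes of 0.13 and 0.069, and scaling to somatic markers turned the sign, to -0.31.

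The ratio of catp-3 to eat-6 within a library does not depend on how libraries are scaled. Per kilobase of exon, it was 0.0194 and 0.0206 in the controls, against 0.156 and 0.153 with ATTF-6 depleted, a 7.73-fold difference. The same ratio taken to catp-4 was 0.717 and 0.852 in the controls, against 3.96 and 3.39 with ATTF-6 depleted. Taken to catp-1 it was 0.962 and 0.961 in the controls, against 6.21 and 4.99 with ATTF-6 depleted. In all 3 ratios catp-3 gained on its relative in both depletion libraries. Because catp-3 was chosen by its fold change in this comparison, that direction followed from the choice, and the ratios are given as a description. With 2 libraries per group no exact permutation test could pass 0.05, and none was run.

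Of the other alpha-type genes, catp-4 and catp-1 rose. The gene catp-4 (WBGene00007248, chromosome II, 14593581 to 14597657, plus strand, 1015 residues) had 28.2 and 24.7 CPM in the controls, against 44.2 and 51.4 CPM with ATTF-6 depleted. Its libraries did not overlap between groups, and the log2 fold change was 0.85 (SE 0.12, adjusted p = 0.00035). Scaling to somatic markers left 0.41 (adjusted p = 0.019).

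In worms, catp-1 is known for its part in developmental timing and in the response to nicotinic agonists. The gene (WBGene00013672, chromosome I, 14436810 to 14451889, minus strand, 1121 residues) had 24.6 and 25.6 CPM in the controls, against 32.9 and 40.9 CPM with ATTF-6 depleted. The depletion libraries differed from each other by 0.31 on the log2 scale, the widest replicate gap among the tested genes of the set. Its log2 fold change was 0.56 (SE 0.13, adjusted p = 0.0054). The value was 0.51 without control replicate 1. The call was lost after scaling to somatic markers (0.11, adjusted p = 0.50). It is the only gene of the set with fractional counts, which the counting gives where a read has several alignments. The gene Y105E8A.27, inside catp-1 on the opposite strand, had 117 and 113 counts in the controls, against 159 and 255 with ATTF-6 depleted (log2 fold change 1.14, SE 0.22, adjusted p = 0.0016). Counting used strand, and the part of this gene in the catp-1 value was not tested.

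The gene catp-2 (WBGene00015338, chromosome V, 4934706 to 4939085, plus strand, 1050 residues) was barely detected. It had 0 and 3 counts in the controls, against 4 and 5 with ATTF-6 depleted. It did not pass the expression filter, and a difference was not detectable at this depth.

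Summed per kilobase of exon, the 5 alpha-type genes had 350.7 ± 4.85 CPM per kilobase in the control and 440.7 ± 6.14 CPM per kilobase upon depletion (SD, n = 2). Of the difference of 90.1 CPM per kilobase, catp-3 made up 49.0 and eat-6 made up 31.0. The direction of the sum depended on the scaling. Scaled to somatic markers, it was 408.8 ± 0.506 in the control and 378.2 ± 16.9 CPM per kilobase upon depletion, with a difference of -74.5 for eat-6 and 40.1 for catp-3. The share of eat-6 in the sum was 93.8% in both controls, and 82.0% and 81.3% upon depletion. That of catp-3 was 1.82% and 1.93% in the control and 12.8% and 12.5% upon depletion. In the control catp-3 was the least abundant but for catp-2 among the alpha-type genes, and upon depletion it was second to eat-6.

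**Figure D3:**
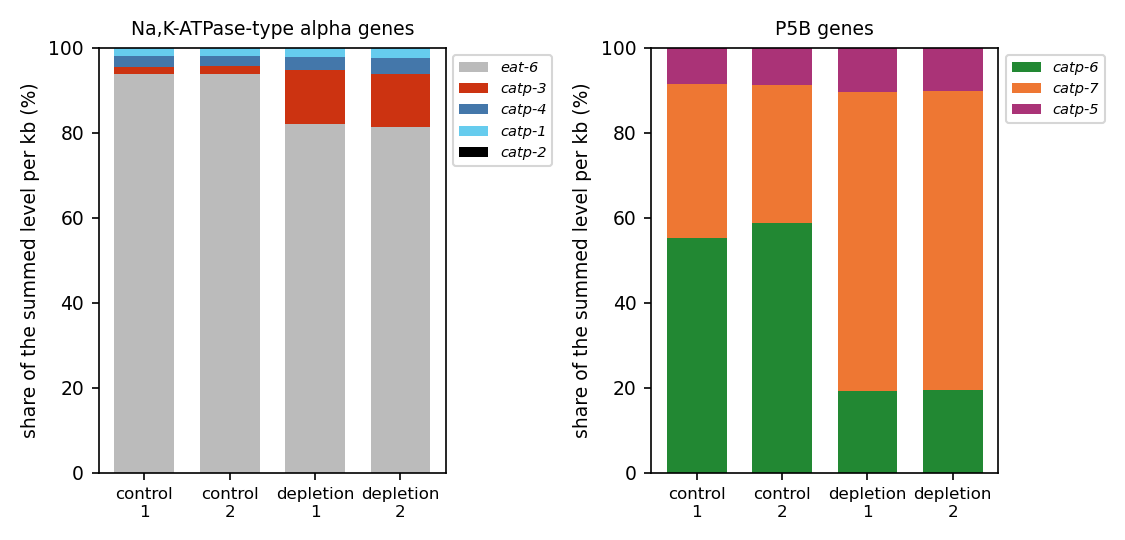
Share (%) of each gene in the summed level per kilobase of exon, per library, for the 5 Na,K-ATPase-type alpha genes (left) and the 3 P5B genes (right). On the left the catp-3 share is 1.82% and 1.93% in the controls and 12.8% and 12.5% upon depletion, and on the right catp-7 takes 36.1% and 32.4% in the controls and 70.3% and 70.4% upon depletion.

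Among the P5B pumps, catp-6 fell while catp-7 rose, and how far they balanced in the P5B sum depended on the scaling. In worms, CATP-6 acts positively on the transporter-like protein GEM-1. The gene catp-6 (WBGene00012341, chromosome IV, 9817412 to 9824580, minus strand, 1267 residues) had 4130 and 4156 counts in the controls, against 967 and 1343 with ATTF-6 depleted, or 126.7 and 137.5 CPM against 42.6 and 48.2 CPM. Both controls were well above both depletion libraries. Its log2 fold change was -1.54 (SE 0.11, adjusted p = 8.8e-06).

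The gene catp-7 (WBGene00022010, chromosome IV, 8585983 to 8594616, plus strand, 1127 residues) had 2472 and 2092 counts in the controls, against 3231 and 4472 with ATTF-6 depleted. Normalized, these were 75.8 and 69.2 CPM against 142.4 and 160.5 CPM. Both depletion libraries were above both controls, with a log2 fold change of 1.06 (SE 0.11, adjusted p = 6e-05). The call held after scaling to somatic markers, at 0.62 (adjusted p = 0.0011).

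CATP-5 takes up polyamines in the worm intestine. Its gene (WBGene00019493, chromosome X, 8089785 to 8098863, minus strand, 1202 residues) had 21.5 and 22.5 CPM in the controls, against 25.2 and 27.8 CPM with ATTF-6 depleted. The log2 fold change was 0.27 (SE 0.12, interval from -0.009 to 0.55, adjusted p = 0.082). The groups did not overlap, but the test made no call. Without depletion replicate 1 the value was 0.33, and after scaling to somatic markers it was -0.17 (adjusted p = 0.27).

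Within each library, the ratio of catp-6 to catp-7 per kilobase of exon was 1.53 and 1.82 in the controls, against 0.274 and 0.275 with ATTF-6 depleted. The order of the pair was thus opposite in the groups, and the ratio was 6.10 times higher in the control. The ratio of catp-6 to catp-5 was 6.45 and 6.68 in the controls, against 1.85 and 1.90 with ATTF-6 depleted. The 3 P5B genes together had 56.4 ± 0.771 CPM per kilobase in the control and 57.3 ± 4.79 upon depletion (SD, n = 2), a difference smaller than the spread between the depletion replicates. The differences within that sum were -21.1 CPM per kilobase for catp-6 and 21.0 for catp-7. Scaled to somatic markers, the sum was 65.8 ± 1.73 in the control and 49.1 ± 1.24 CPM per kilobase upon depletion, with differences of -28.07 for catp-6 and 12.04 for catp-7.

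The P5A gene catp-8 (WBGene00007514, chromosome IV, 11473363 to 11479251, minus strand, 1178 residues) had the highest level per kilobase of exon after eat-6 in the control. In worms CATP-8 is needed for the branching of sensory dendrites. Its counts were 5334 and 5015 in the controls, against 2062 and 2687 with ATTF-6 depleted, or 163.6 and 165.9 CPM against 90.9 and 96.5 CPM. Both depletion libraries were below both controls, with a log2 fold change of -0.81 (SE 0.10, adjusted p = 0.00016). The genes on either side fell too. The gene wht-2, whose end overlaps that of catp-8 by 57 bases on the opposite strand, had a log2 fold change of -0.98 (SE 0.12, adjusted p = 0.0001). The gene mbf-1, 102 bases upstream on the same strand, had -0.41 (SE 0.10, adjusted p = 0.0058).

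Markers of several tissues differed between the groups, and their part in the values of the ATPase genes was not tested. In RNA of whole animals, fewer cells of a type and less RNA per cell cannot be told apart. By imaging, the authors saw atrophy of the germ line when ATTF-6 was depleted from L4, and its part in the values here was not tested. Of all genes tested, 32.1% were called lower. All 17 germ cell markers fell, from a summed 4064 to 4072 CPM in the control to between 1365 and 1635 CPM upon depletion, with a median log2 fold change of -1.38. All 13 oocyte markers fell as well, from between 10170 and 10190 CPM to between 1662 and 2042 CPM, with a median of -2.44. The catp-6 and catp-8 values of -1.54 and -0.81 lay on the same side as these. None of these markers was at 0 in any library.

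The somatic lists had medians smaller in size than those of the germ cell and oocyte lists, but single somatic markers fell as far as some germ cell markers. The rise of somatic markers is relative to the TMM scale, since the alternative scaling sets part of these genes as its reference. Of all genes tested, 30.9% rose and 32.1% fell. Of 8 body wall muscle markers, 6 rose and 0 fell, and their sum was between 11790 and 11850 CPM in the control and between 17860 and 19220 CPM upon depletion. Of 7 intestinal markers, 5 rose and 0 fell, with sums of 4852 to 5093 CPM and 5908 to 7548 CPM. Of 9 neuronal markers, 5 rose and 0 fell, with sums of 267.8 to 270.4 CPM and 343.7 to 372.4 CPM. Of 8 somatic gonad markers, 5 rose and 0 fell, with sums of 655.7 to 660.4 CPM and 899.2 to 1021 CPM. The medians of these lists were 0.74, 0.47, 0.56 and 0.50. Only 1 of 6 pharyngeal markers rose, with sums of 865.2 to 879.1 CPM and 838.5 to 1161 CPM, and 2 of 7 excretory canal markers rose and 1 fell, with sums of 121.1 to 130.3 CPM and 132.3 to 143.4 CPM. Of 7 hypodermal markers, 3 rose and 2 fell, with sums of 1419 to 1453 CPM and 2350 to 2745 CPM. Those that fell were lin-26, with a log2 fold change of -1.62 (SE 0.12, adjusted p = 9.8e-06), and nhr-23, with -0.88 (SE 0.13, adjusted p = 0.00032). The excretory canal marker that fell was exc-4, with -0.855 (SE 0.12, adjusted p = 0.00031). Sperm markers belong to the germ line and not to the soma, and they did not fall as a list. Of 10 sperm markers, 7 rose and 1 fell, with a median of 0.58 and sums of 163.6 to 172.5 CPM and 217.9 to 236.7 CPM. After scaling to somatic markers, 1 somatic gonad marker rose and 0 fell, and 1 excretory canal marker rose and 2 fell. On that scale 3 sperm markers rose and 1 fell, where 2204 of the 16591 genes tested rose and 6586 fell. Among all 92 marker genes tested, the highest log2 fold change was 1.73, for spe-9 of the sperm list.

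The order of levels in the control, per kilobase of exon, was eat-6, catp-8, catp-6, catp-7, catp-4, catp-1, catp-3, catp-5 and catp-2. The 2 values of each gene did not overlap those of the next, but catp-1 and catp-3 nearly touched, with 6.70 and 6.98 CPM per kilobase for catp-1 and 6.45 and 6.70 for catp-3. By comparison eat-6 had 332.0 and 325.7 CPM per kilobase. Upon depletion, catp-3 took the second place with 55.7 and 55.5 CPM per kilobase, ahead of catp-7 with 37.9 and 42.8, and catp-6 dropped to the sixth place with 10.4 and 11.8.

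The Na,K-ATPase beta subunits, the partners of the alpha subunit, moved less than catp-3. The gene nkb-1 had 164.8 and 168.2 CPM in the controls, against 140.0 and 158.6 CPM with ATTF-6 depleted, with no call (log2 fold change -0.16, SE 0.11, adjusted p = 0.24). The gene nkb-3 had 95.9 and 101.9 CPM against 124.0 and 131.7 CPM and rose, with 0.37 (SE 0.10, adjusted p = 0.012). The largest value was that of nkb-2, which rose from 6.38 and 5.86 CPM to 11.9 and 12.8 CPM, with a log2 fold change of 1.01 (SE 0.17, adjusted p = 0.00085). Thus 2 of 3 rose and 0 fell, where 63.0% of all genes tested were called, and nothing is read from the count. The median was 0.37, and it was -0.073 after scaling to somatic markers, with nkb-2 higher (0.57, adjusted p = 0.024), nkb-1 lower (-0.60, adjusted p = 0.0013) and no call for nkb-3.

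Of 12 other P-type ATPases of the worm, 5 rose, 4 fell and 3 made no call, against the 30.9% higher and 32.1% lower of all genes tested. Their median log2 fold change was 0.062, and it became -0.053 with RLE size factors and -0.38 after scaling to somatic markers. On the somatic scale 0 of the 12 rose and 7 fell, where 2204 of the 16591 genes tested rose and 6586 fell. The calcium pump of the endoplasmic reticulum, sca-1, rose by 0.48 (adjusted p = 0.007). Of the plasma membrane calcium pumps, mca-2 rose by 0.43 (adjusted p = 0.0066), while mca-1 had 0.12 (adjusted p = 0.42) and mca-3 had 0.004 (adjusted p = 0.98), with no call. The copper pump cua-1 fell by 0.64 (adjusted p = 0.00073) and the Golgi calcium and manganese pump pmr-1 fell by 0.48 (adjusted p = 0.0047). Among the TAT flippases, which move phospholipids between membrane leaflets, tat-3 fell by 0.80 (adjusted p = 0.00095) and tat-5 by 0.51 (adjusted p = 0.0028), whereas tat-2 rose by 0.70 (adjusted p = 0.0037) and tat-4 by 0.60 (adjusted p = 0.0085), and tat-1 had -0.27 with no call (adjusted p = 0.054). The largest value was that of tat-6, 1.69 (SE 0.58, adjusted p = 0.031), from 16 and 5 counts in the controls, against 29 and 25 with ATTF-6 depleted. None of the 12 reached the value of catp-3.

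The V-type ATPase, a proton pump of many subunits that acidifies lysosomes and other compartments, is no relative of the P-type pumps and was taken for comparison. Of its 21 genes 11 rose, 2 fell and 8 made no call, with a median of 0.33, where 30.9% of all genes tested rose and 32.1% fell. After scaling to somatic markers the median was -0.11, and 0 rose and 3 fell. On that scale 2204 of the 16591 genes tested rose and 6586 fell. The values ran from -1.27 for vha-18 (SE 0.11, adjusted p = 1.5e-05), an H subunit gene, to 0.77 for vha-3 (SE 0.13, adjusted p = 0.00079). Genes of the a subunit went both ways, with vha-6, the intestinal form, at 0.68 (adjusted p = 0.00081) and vha-7 at -0.87 (adjusted p = 0.00012).

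**Figure D4:**
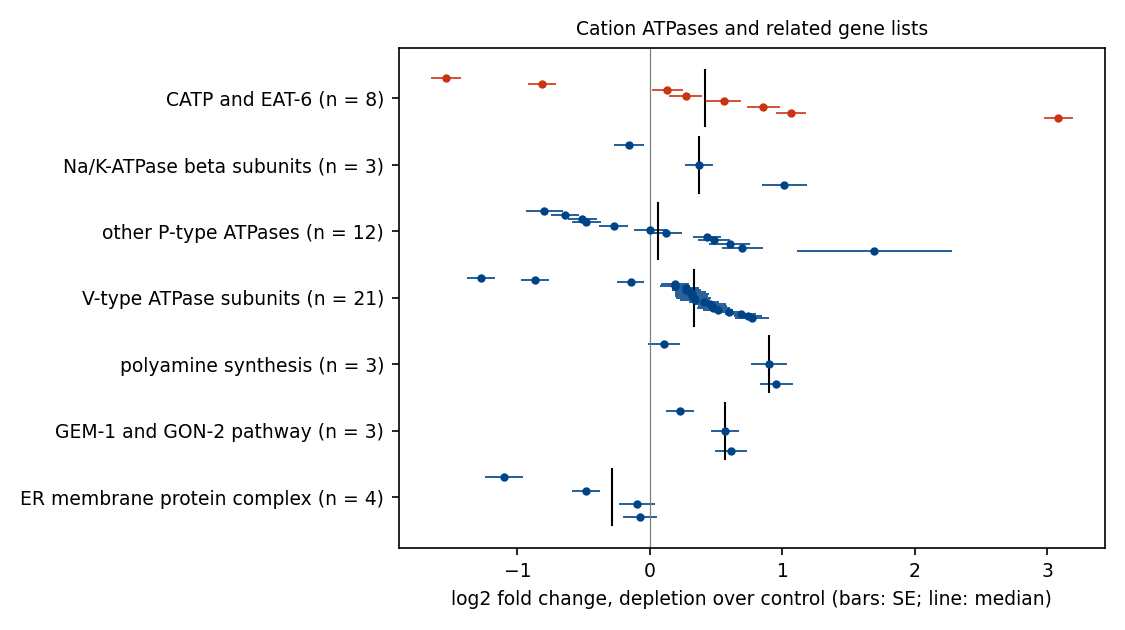
Log2 fold change of depletion over control with its standard error for the 8 tested cation ATPase genes (red) and the tested genes of 6 related lists (blue). Black lines are medians. The catp-3 point at 3.08 lies to the right of every other point, the next being tat-6 at 1.69.

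Genes that act with the P5 pumps were followed as well. In polyamine synthesis, odc-1 (ornithine decarboxylase) had 18.2 and 17.9 CPM in the controls, against 37.4 and 32.7 CPM with ATTF-6 depleted, a log2 fold change of 0.96 (SE 0.12, adjusted p = 0.00018). The spermidine synthase gene spds-1 rose by 0.90 (SE 0.14, adjusted p = 0.00049), and smd-1 (S-adenosylmethionine decarboxylase) had 0.11 (SE 0.12, adjusted p = 0.46), so 2 of 3 rose and 0 fell, against 63.0% called among all genes. The calls of odc-1 and spds-1 held after scaling to somatic markers, at 0.52 (adjusted p = 0.017) and 0.46 (adjusted p = 0.045). Of gem-1 and the TRPM channel genes gon-2 and gtl-1, gem-1 rose by 0.61 (SE 0.12, adjusted p = 0.0021) and gtl-1 by 0.57 (SE 0.10, adjusted p = 0.0013), while gon-2 had 0.23 with no call (adjusted p = 0.085). After scaling to somatic markers 0 of these 3 were called at the edgeR threshold, where 8790 of the 16591 genes tested were called. On that scale gem-1 had 0.17 (adjusted p = 0.31) and gtl-1 had 0.12 (adjusted p = 0.36).

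Of the membrane protein insertion complex of the endoplasmic reticulum, 4 genes were tested, of which 2 fell and 0 rose, with a median of -0.29, where 32.1% of all genes tested fell. After scaling to somatic markers all 4 fell, where 6586 of the 16591 genes tested fell and 2204 rose. The gene emc-5 had 18.9 and 20.0 CPM in the controls, against 9.17 and 8.94 CPM with ATTF-6 depleted (log2 fold change -1.10, SE 0.15, adjusted p = 0.00021). The gene emc-1 fell by 0.48 (adjusted p = 0.0038), and emc-2 had -0.075 (adjusted p = 0.63).

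The sign of the small differences depended on how the libraries were scaled. Scaling to 37 somatic marker genes lowered the median over all genes by 0.44 on the log2 scale. The values were then 2.64 for catp-3, 0.62 for catp-7, -1.26 for catp-8 and -1.98 for catp-6. On this scale eat-6 had -0.31 (adjusted p = 0.061).

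**Figure D5:**
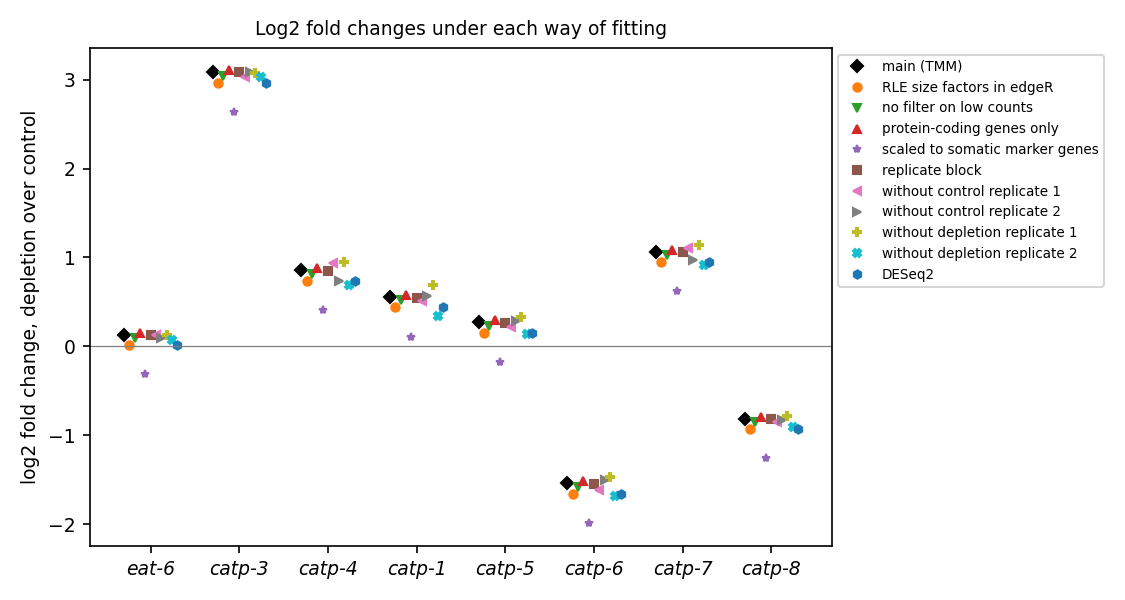
Log2 fold change of depletion over control for each of the 8 tested genes (x axis) under the TMM fit (black diamond) and 10 other ways of fitting (coloured symbols). The catp-3 values run from 2.64 to 3.10 and those of catp-6 from -1.98 to -1.46, whereas eat-6 and catp-5 have values on both sides of 0.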

How the data were processed

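The authors trimmed reads with TrimGalore, aligned them to WormBase WS279 with STAR, dropped orphan mates and counted pairs by strand with featureCounts, dividing multi-mapped reads between their alignments. The deposited values are expected counts per gene, not normalized, 1 table per library. Versions are not given in the sources used here. The 181 transposon rows, quantified by the authors with Salmon, were not used.

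The deposited expected counts were rounded to whole numbers and fitted with edgeR 4.0.16 (R 4.3.3): filterByExpr (minimum count 10, minimum total 15), TMM, prior count 0.125, quasi-likelihood F-test, two-sided, Benjamini-Hochberg adjustment at 0.05. A standard error is the log2 fold change divided by the square root of F. CPM per kilobase uses the union of exons. Symbols, exons and coordinates come from Ensembl release 115 (WBcel235), which holds 46924 of the 46934 gene identifiers. RNAs longer than 200 nt had been kept. DESeq2 1.42.0 was an alternative. The fits were also tried on simulated data in which few genes changed, unlike here. The scaling of libraries was not tested there.

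All 9 genes are named, with list members, neighbours of the genes, and the 3 genes most like catp-3. Members and lists were chosen with earlier results of these data known. C10C6.8 and Y105E8A.27 were chosen after their values were seen. Symbols emc-4, opt-2 and tag-312 were not matched. The labels do not say whether replicates were separate cultures, so p-values measure only the spread between these libraries. No sequence was analysed here.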

Additional observations from a re-analysis of the deposited data

How the results depend on the processing

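The log2 fold change of catp-3, 3.08 with TMM, was 2.96 with RLE size factors and with DESeq2, 3.04 without the filter, 2.64 with somatic scaling and between 3.03 and 3.09 with single libraries left out. Its gain on eat-6 was 7.73-fold. Exon length cancels in this fold, and the counts of both genes were whole numbers, so neither length nor rounding could change it. Without catp-3, the number of genes of the set called, 5 of 7, was 4 with somatic scaling and between 4 and 7 with single libraries left out, and the number of all genes called ranged from 8242 to 11168. The sign of eat-6 and catp-5 turned with somatic scaling (-0.31 and -0.17), as did the medians of the beta subunits (-0.073) and the V-type subunits (-0.11). The median of the other P-type ATPases turned to -0.053 with RLE factors and DESeq2, -0.38 with somatic scaling and -0.12 without depletion replicate 2, and leaving out single libraries gave -0.12 to 0.17. RLE factors moved the median of all genes by -0.12. Of all calls, 49.0% were higher with TMM and 25.1% with somatic scaling. Deviations from the group means had a correlation of -0.011 between same-numbered libraries, which cannot show whether these were prepared as pairs. With the replicate block 10749 genes were called, and 5 of the 7. Somatic scaling of the sums, chosen after seeing the data, gave differences of -30.5 CPM per kilobase for the alpha-type genes and -16.7 for the P5B genes.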

Other observations

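The snoRNA gene C10C6.8 lies within intron 7 of 8 of catp-8 (intron at chromosome IV, 11474034 to 11474367) on the same strand, from 11474059 to 11474191. Small nucleolar RNAs guide the modification of ribosomal RNA, and some of those in introns are released from the host transcript. Whether C10C6.8 is made from its host transcript was not tested. C10C6.8 had 3372 and 2028 counts in the controls, against 8303 and 4367 with ATTF-6 depleted, or 103.4 and 67.1 CPM against 365.9 and 156.8 CPM. Both depletion libraries were above both controls, and the depletion replicates stood far apart. Its log2 fold change was 1.61 (SE 0.35, adjusted p = 0.0033 by edgeR), opposite in sign to that of its host at -0.81 (SE 0.10). The gene spans 133 bases, below the 200 nt that the library protocol selected for, and a difference in the recovery of short RNA between libraries was not tested.

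Among the neighbours of the other members, some moved to the same side as the member and some to the opposite side. The trehalose synthase gene tps-2, 3244 bases downstream of catp-4 on the same strand, had 109.7 and 105.5 CPM in the controls, against 229.9 and 220.2 CPM with ATTF-6 depleted (log2 fold change 1.07, SE 0.11, adjusted p = 3.9e-05), with catp-4 at 0.85. Beside catp-6, egl-20, a Wnt ligand gene, rose by 1.10 (SE 0.22, adjusted p = 0.0021) where catp-6 had -1.54, and mtr-4 on the other side had -0.79 (SE 0.10, adjusted p = 0.00018). Beside catp-5, vem-1 rose by 0.69 (SE 0.12, adjusted p = 0.00074) and K07E3.2 had -0.96 (SE 0.21, adjusted p = 0.0031). Beside eat-6, max-1 rose by 0.64 (SE 0.21, adjusted p = 0.028) and B0365.9 had 0.34 with no call (adjusted p = 0.31). The tested neighbours of catp-1 and catp-7 made no call.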
